A study of Gallus gallus with 4 samples.

Results

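HOPX, its partners SRF and EPC1, and the class I and class II histone deacetylases that carry the symbols HDAC1 to HDAC4 and HDAC7 to HDAC9 were examined on 4 Affymetrix chicken arrays. Member probe sets were matched by the gene symbol of the platform annotation, without use of any measured value. This gave 19 of the 38535 probe sets and covered all 10 genes, of 13009 named on the platform. The genes themselves were chosen with earlier results of these data known. The cells were PR9692, a line derived from a chicken sarcoma of strain CC.R1, grown at 40 °C in medium with calf and chicken serum. One form was stably transfected with an anti-HOPX shRNA, a short hairpin RNA against HOPX, and is called non-metastatic in the series' design text. The other form was stably transfected with a control shRNA and is called metastatic there. Each form has 2 arrays, which the labels call biological replicates without saying whether these were separate cultures or whether a form was a clone or a pool, so p-values measure the spread between these arrays.

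HOPX is a small homeodomain protein that does not bind DNA itself. In the mouse heart it binds SRF, a transcription factor of muscle, cytoskeletal and growth-induced genes, and holds SRF targets down by bringing in class I histone deacetylases, HDAC2 among them. EPC1 is a scaffold subunit of the NuA4/TIP60 acetyltransferase complex and was described in mouse muscle cells as a partner of both HOPX and SRF. Histone deacetylases remove acetyl groups from lysines. The class I enzymes HDAC1, HDAC2 and HDAC3 work mainly inside nuclear corepressor complexes and HDAC8 largely outside them, whereas the class IIa enzymes HDAC4, HDAC7 and HDAC9 move between nucleus and cytoplasm and bind MEF2 transcription factors.

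Levels are given as the deposited GCRMA values (log2), and every difference is that of the anti-HOPX mean from the control mean, positive where anti-HOPX cells were higher. GCRMA pulls dim probe sets towards a narrow floor, so a mean of 4 over the 4 arrays was taken as the level above which a probe set counts as measured. Pearson's r across the 14851 measured probe sets was 0.985 between the anti-HOPX arrays and 0.992 between the control arrays, and 0.954 to 0.959 between arrays of different forms. Of the mesenchymal markers 10 of the 13 on the array were measured. With the brightest probe set of each, 7 of these 10 were above 0 and 3 below. At an unadjusted p under 0.05 by limma, 3 were higher and 0 lower, against 13.1% and 14.5% of all genes tested. VIM, the intermediate filament vimentin, read 15.90 and 15.89 on the anti-HOPX arrays and 15.97 on each control array. The collagen COL1A1 rose by 1.73 (limma adjusted p = 0.0021). Of the markers not measured on average, COL1A2 read 2.79 and 2.39 on the anti-HOPX arrays against 4.16 and 5.36 on the control arrays. PDGFRA went the other way, at 4.66 and 3.82 against 2.80 and 2.76. The list summed on the linear scale to 126548 and 112883 on the anti-HOPX arrays and to 107076 and 111989 on the control arrays. None of 9 muscle markers was measured. Of the leukocyte markers 3 of 10 were measured, SPI1 and the called CD74 (1.45 higher, limma adjusted p = 0.025) and CD3D (-1.11, limma adjusted p = 0.039), while PTPRC was not, and the list summed on the linear scale to 532 and 648 on the anti-HOPX arrays and to 485 and 446 on the control arrays. Of the endothelial markers 2 of 9 were measured, ERG and PECAM1, with sums of 796 and 855 against 974 and 1412, and of the epithelial markers 1 of 6, CDH3, with sums of 204 and 209 against 176 and 171, while CDH5 and CDH1 were not measured. Each of the leukocyte, endothelial and epithelial sums came mostly from a single gene, SPI1, ERG and CDH3 respectively. The mesenchymal sum came mostly from VIM and FN1, so it says little about the rest of that list. The part of the markers in the results below was not tested.

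Among the 10 genes, 7 had a measured probe set (SRF, HDAC1, HDAC2, HDAC3, HDAC4, HDAC8 and HDAC9) and 3 did not (HOPX, EPC1 and HDAC7). HDAC3 was the one member with a called difference: its brighter probe set was higher in the anti-HOPX cells. By limma with Benjamini-Hochberg adjustment over 14861 probe sets, 1 of the 19 member probe sets was higher at an adjusted p under 0.05, against 3.1% of all probe sets tested, and 0 were lower, against 4.53%. At an unadjusted p under 0.05, 2 member probe sets were higher and 1 was lower, against 11.6% and 13.7% of all probe sets tested. The 1 call of 19 is near the background share of 7.62% for either direction. However, 10 of the 19 member probe sets were not measured, whereas 14851 of the 14861 probe sets tested were. Counted over the measured member probe sets alone, it was 1 call of 9. All 3 member probe sets at an unadjusted p under 0.05 were measured ones. The lists of genes and the members were chosen with earlier results of these data known.

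HOPX itself could not be followed on these arrays. Its 2 probe sets stayed under 4 on all arrays, the brighter at 3.21 and 3.54 in anti-HOPX cells against 3.23 and 3.72 in control cells, and the other at 3.05 and 2.92 against 3.08 and 3.23. For the brighter one the arrays of the forms interleaved, and for the other the anti-HOPX arrays lay just under the control arrays. The 95% interval of the difference ran from -0.72 to 0.52 for the brighter probe set and from -0.61 to 0.27 for the other, both including 0. These intervals are on a scale compressed by the background model, so they do not bound the change of the transcript, and the shRNA's effect on its target was not measurable here.

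SRF, the factor whose targets HOPX holds down in the mouse heart, was measured with 1 of its 2 probe sets. It read 5.75 and 6.78 in anti-HOPX cells and 6.65 and 6.94 in control cells. Anti-HOPX replicate 1 stood apart below the other 3 arrays, while replicate 2 lay between the control arrays. The difference was -0.52 (SE 0.37, 95% interval -1.45 to 0.40, limma adjusted p = 0.44), so the comparison leaves room for a fall of more than 2-fold as well as for a small rise. It was -1.04 without anti-HOPX replicate 2 and -0.01 without anti-HOPX replicate 1. Each of these fits leaves 1 anti-HOPX array and so no spread within that form, and only the difference is given. The gap of 1.03 between the anti-HOPX arrays was larger than that of 96.7% of the measured probe sets. The other SRF probe set stayed between 2.13 and 2.16 on all arrays.

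EPC1 was represented by 1 probe set, which read 2.56 on each anti-HOPX array and 2.56 and 2.46 on the control arrays. All of these lie near the floor, and no difference could be read (0.05, SE 0.16, limma adjusted p = 0.87).

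**Figure D1:**
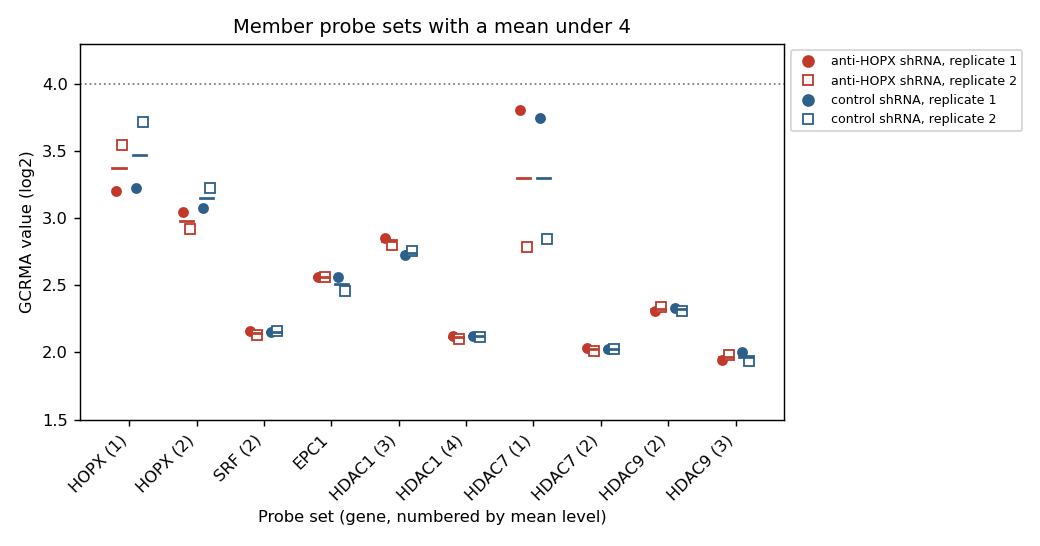
The 10 member probe sets with a mean under 4, as GCRMA values on the log2 scale (y axis), for each anti-HOPX array and each control array; short bars are the means of 2 arrays and the dotted line marks 4. All points lie between 1.94 and 3.81, and the brighter HDAC7 probe set follows the replicate number rather than the form.

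HDAC1 and HDAC2 are the closely related catalytic subunits of the SIN3, NuRD and CoREST complexes. HDAC2, the deacetylase tied to HOPX in the mouse heart, read 12.06 and 11.97 in anti-HOPX cells against 11.81 and 11.64 in control cells. The arrays did not overlap, but the difference of 0.29 (SE 0.12, 95% interval -0.01 to 0.58) did not pass (limma adjusted p = 0.21). The interval covers 0 by a narrow margin and has its upper end well under a doubling.

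HDAC1 had 4 probe sets, of which 2 were measured, and these gave different values. The brighter read 9.77 and 9.75 in anti-HOPX cells against 9.39 and 9.27 in control cells, a difference of 0.43 (SE 0.14, limma adjusted p = 0.12) with no overlap. The second read 8.89 and 8.93 in anti-HOPX cells, between the control values of 9.07 and 8.80, a difference of -0.03 (SE 0.16, limma adjusted p = 0.94). The second derives from another source sequence than the first, and that sequence may belong to LCK rather than HDAC1. LCK is the next gene to HDAC1 in the RefSeq table. A separate LCK probe set lay between 2.22 and 2.28 on all arrays, which does not settle what the second HDAC1 probe set reads. Whether the second HDAC1 probe set reads HDAC1 alone is uncertain and was not tested. The other 2 HDAC1 probe sets lay between 2.10 and 2.86.

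HDAC3, a catalytic subunit of nuclear corepressor complexes, read 9.36 and 9.58 in anti-HOPX cells against 8.62 and 8.74 in control cells with its brighter probe set. Both anti-HOPX arrays were above both control arrays. The means were 9.47 ± 0.16 and 8.68 ± 0.08 (SD, n = 2 each), a rise of 0.79 (SE 0.16, limma adjusted p = 0.046) or 1.73-fold (95% interval 1.31-fold to 2.28-fold). The call lies close to the threshold. It did not hold by limma when control replicate 1 (adjusted p = 0.32), control replicate 2 (adjusted p = 0.28) or anti-HOPX replicate 2 (adjusted p = 0.058) was left out, nor with all probe sets tested (adjusted p = 0.16) or with no intensity trend (adjusted p = 0.061).

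The second HDAC3 probe set, from another source sequence, read 6.02 and 6.48 in anti-HOPX cells against 5.94 and 5.99 in control cells. Its arrays did not overlap either, though anti-HOPX replicate 1 was barely above control, and the difference of 0.28 (SE 0.23, 95% interval -0.30 to 0.87) did not pass (limma adjusted p = 0.51). The direction of both HDAC3 probe sets was kept in all 11 alternatives in which differences were recomputed, from 0.68 to 0.90 for the brighter and from 0.05 to 0.51 for the second.

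**Figure D2:**
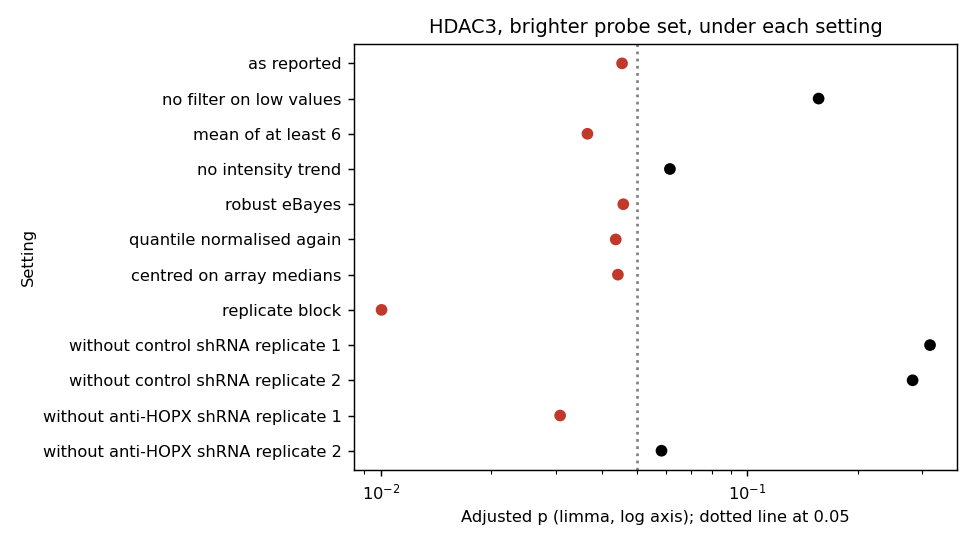
Limma adjusted p (x axis, log scale) of the brighter HDAC3 probe set as reported and under each of 11 alternatives (y axis), with a dotted line at 0.05. The call was kept in 6 alternatives and lost in 5, among them the removal of either control array.

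HDAC8, a class I enzyme that also acts on cohesin, read 11.99 and 11.28 in anti-HOPX cells and 11.50 and 11.26 in control cells. Anti-HOPX replicate 1 was the highest of the 4 arrays and replicate 2 lay between the control arrays. The difference was 0.25 (SE 0.25, limma adjusted p = 0.58) and turned to -0.10 without anti-HOPX replicate 1.

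The class IIa enzymes that were measured lay on the other side of 0. HDAC4 read 8.05 and 8.12 in anti-HOPX cells against 8.53 and 8.76 in control cells. Each anti-HOPX array was below each control array, and the difference of -0.56 (SE 0.17, 95% interval -0.98 to -0.13) had an unadjusted p of 0.019 but did not pass after adjustment (limma adjusted p = 0.11). HDAC9 read 8.58 and 8.43 in anti-HOPX cells against 9.04 and 8.76 in control cells, likewise without overlap, with a difference of -0.40 (SE 0.18, 95% interval -0.84 to 0.04, limma adjusted p = 0.23). Its other 2 probe sets lay between 1.94 and 2.34.

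HDAC7 had 2 probe sets, neither measured. The brighter read 3.81 and 2.78 in anti-HOPX cells and 3.75 and 2.85 in control cells, high on replicate 1 and low on replicate 2 of each form, and the second stayed between 2.01 and 2.04.

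**Figure D3:**
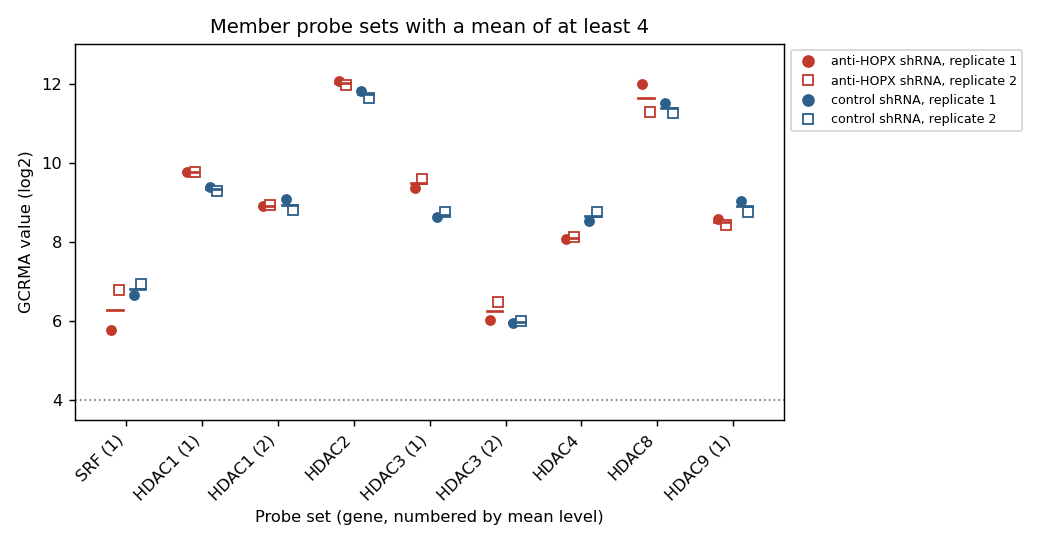
The 9 measured member probe sets, as GCRMA values on the log2 scale (y axis), for each anti-HOPX array and each control array; short bars are the means of 2 arrays and the dotted line marks 4. HDAC3 (1), HDAC1 (1) and HDAC2 sit higher in anti-HOPX cells, HDAC4 and HDAC9 lower, and SRF and HDAC8 are split by 1 anti-HOPX array.

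Counted by class with the brightest probe set of each gene, 4 of 4 class I enzymes were above 0, from 0.25 to 0.79, and 2 of 2 measured class IIa enzymes were below 0, at -0.40 and -0.56. Of these 6 genes only HDAC3 passed the test, and HDAC8 turned below 0 without anti-HOPX replicate 1. The second HDAC1 probe set, whose target is uncertain, was at -0.03. Of all genes tested 52.2% were above 0. The arrays of the forms did not overlap at 6 of the 9 measured member probe sets, against 55.9% of all probe sets tested, with 4 of the 9 higher (background 27.9%) and 2 lower (background 28%), so the separation is near that of the arrays at large. The median difference of the 9 was 0.25 and that of all probe sets tested was 0.01. Levels of different genes were not compared, because probe sets differ in how strongly they bind their transcripts.

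**Figure D4:**
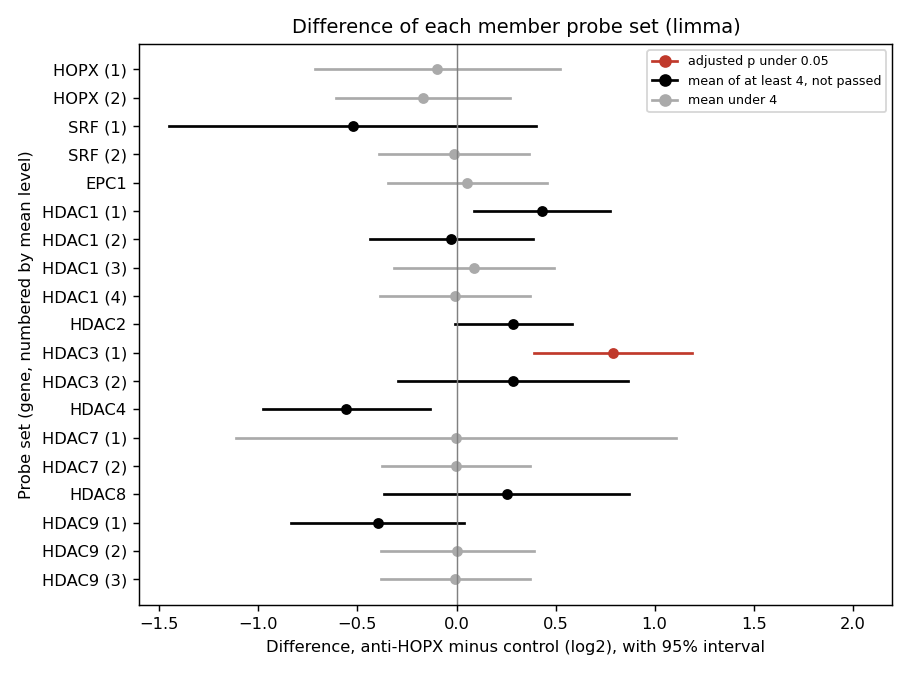
Difference in log2 value, anti-HOPX minus control (x axis), of the 19 member probe sets (y axis), as points with the 95% interval from limma, not adjusted for the number of probe sets. HDAC3 (1), in red, is the member past an adjusted p of 0.05; probe sets with a mean under 4 are grey.

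Outside the members, the deacetylase SIRT2 was higher in the anti-HOPX cells with both of its measured probe sets. SIRT2, an NAD-dependent deacetylase of tubulin and histones, read 9.97 and 9.64 in anti-HOPX cells against 8.60 and 8.46 in control cells, 2.42-fold higher (difference 1.27, SE 0.17, limma adjusted p = 0.018). Its second measured probe set rose as well (1.45, limma adjusted p = 0.013). It was the 1 of 7 measured genes of this list that passed, with 0 lower, and the list's median difference was 0.16 against 0.02 over the 7691 genes tested, of which 8.85% passed, 3.6% higher and 5.25% lower. At an unadjusted p under 0.05, 2 of the 7 were higher and 1 lower by limma, against 13.1% and 14.5% of all genes tested. SIRT4, a mitochondrial sirtuin, differed by -0.69 (limma adjusted p = 0.16), and the class IIb enzyme HDAC10 by -0.55 (limma adjusted p = 0.24).

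Of 25 measured subunits of the corepressor complexes that hold HDAC1, HDAC2 and HDAC3, 1 rose and 0 fell (all genes 3.6% and 5.25%). At an unadjusted p under 0.05 by limma, 5 were higher and 2 lower (all genes 13.1% and 14.5%). The median difference was 0.14. MBD2, a methyl-CpG binding subunit of NuRD, read 11.28 and 11.42 in anti-HOPX cells against 10.76 and 10.72 in control cells, a rise of 0.61 (SE 0.12, limma adjusted p = 0.042). The brightest probe set of KDM1A, the histone demethylase of CoREST, differed by 0.79 (limma adjusted p = 0.074), but its other 2 measured probe sets showed -0.29 (limma adjusted p = 0.44) and 0.16 (limma adjusted p = 0.68). GATAD2A, another NuRD subunit, differed by 0.74 (limma adjusted p = 0.24). Among 105 genes of the lists, the values of KDM1A and MBD2, centred on each gene's mean, lay nearest to those of the brighter HDAC3 probe set, at root mean square distances of 0.09 and 0.11 over the 4 arrays. With so few arrays this distance mostly restates a similar difference between the forms, 0.79 and 0.61 against 0.79 for HDAC3. It is therefore no separate evidence of a link.

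In the NuA4/TIP60 complex, to which EPC1 belongs, 1 of 13 measured subunits rose and 0 fell (all genes 3.6% and 5.25%). At an unadjusted p under 0.05 by limma, 2 were higher and 0 lower (all genes 13.1% and 14.5%). The median difference was 0.18. MBTD1, a subunit that reads methylated histone H4 and contacts EPC1, read 8.94 and 8.75 in anti-HOPX cells against 7.95 and 7.79 in control cells, 1.97-fold higher (limma adjusted p = 0.032). MORF4L2, a further subunit, differed by 0.67 (limma adjusted p = 0.092). EPC2, the paralogue of EPC1, read 5.32 and 4.24 in anti-HOPX cells and 4.93 and 5.64 in control cells, an overlap with a difference of -0.50 (limma adjusted p = 0.52).

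With the brightest probe set of each gene, 3 of the 34 measured SRF cofactors and targets passed, near the 8.85% of all genes tested. The 3 include FLNC, which passed the filter on low values only through the anti-HOPX arrays. None of 7 measured SRF cofactors passed by limma, and the median difference was 0.02. At an unadjusted p under 0.05 by limma, 2 were higher and 2 lower (all genes 13.1% and 14.5%). The repressive ternary complex factor ELK3 differed by -0.48 (limma adjusted p = 0.057) and the DNA-binding protein ARID5B by 0.53 (limma adjusted p = 0.13). The cofactor MYOCD, which drives SRF in smooth and cardiac muscle, and the HOPX-linked cardiac factors GATA4 and NKX2-5 were not measured.

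Of 19 measured cytoskeletal and matricellular SRF targets 1 rose and 1 fell with the brightest probe set of each (all genes 3.6% and 5.25%). The median difference was 0.05. At an unadjusted p under 0.05 by limma, 5 were higher and 3 lower, against 13.1% and 14.5% of all genes tested. TPM1 did not pass with its brightest probe set (0.53, limma adjusted p = 0.079). Among its other measured probe sets, those at 0.80 and 0.81 passed (limma adjusted p = 0.024 and 0.046). The rest, from 0.08 to 0.87, did not. FLNC, an actin crosslinker of muscle, read 6.32 and 6.16 in anti-HOPX cells against 3.23 and 3.21 in control cells, at least 4.71-fold higher with values under 4 raised to 4 (limma adjusted p = 0.0015). It passed the filter on low values only through the anti-HOPX arrays. CNN2, an actin-binding calponin, read 11.41 and 11.12 in anti-HOPX cells against 12.22 and 12.28 in control cells, a fall to about 0.51 of the control level (difference -0.98, SE 0.14, limma adjusted p = 0.019). CYR61, a secreted matricellular protein, differed by -0.80 (limma adjusted p = 0.19) and the myosin light chain MYL9 by 0.65 (limma adjusted p = 0.11). The classical smooth muscle targets ACTA2, TAGLN and MYH11 were not measured.

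Among 8 measured immediate early targets of SRF, EGR1 fell by 1.59 (SE 0.21, limma adjusted p = 0.016) and 0 rose. Of all genes tested 5.25% were called lower and 3.6% higher. The median difference of the 8 was -0.28. At an unadjusted p under 0.05 by limma, 2 were higher and 3 lower, against 13.1% and 14.5% of all genes tested. The arrays of the forms did not overlap at 8 of the 8, against 4474 of 7691 genes tested. DUSP5 did not pass with its brightest probe set (-0.28, limma adjusted p = 0.30), but its other measured probe set did (-1.51, limma adjusted p = 0.045). BTG2, an antiproliferative factor, differed by 0.88 (limma adjusted p = 0.11) and the survival factor MCL1 by -0.62 (limma adjusted p = 0.079). The SRF target FOS was not measured.

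Neither of the last 2 lists held a call, against 8.85% of all genes tested. Of 18 measured partners of class IIa deacetylases, such as MEF2 factors, 14-3-3 proteins and salt-inducible kinases, 0 passed by limma, and the median difference was -0.03. At an unadjusted p under 0.05 by limma, 0 were higher and 1 lower (all genes 13.1% and 14.5%). SIK1, a kinase that sends class IIa enzymes to the cytoplasm, read 9.31 and 10.97 in anti-HOPX cells and 10.92 and 11.29 in control cells, again with anti-HOPX replicate 1 below the rest (difference -0.97, limma adjusted p = 0.31), and MEF2D differed by -0.31 (limma adjusted p = 0.22). Of 8 measured acetyltransferases, which counteract the deacetylases, 0 passed by limma, and the median difference was 0.03. At an unadjusted p under 0.05 by limma, 1 was higher and 2 lower (all genes 13.1% and 14.5%). KAT2B, also called PCAF, differed by -0.80 (limma adjusted p = 0.054) and KAT6A by 0.53 (limma adjusted p = 0.095). The other measured KAT6A probe set lay on the other side of 0, at -0.40 (limma adjusted p = 0.34). Further measured KAT2B probe sets differed less, by -0.30 and -0.26 (limma adjusted p = 0.56 and 0.74).

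Without control replicate 1, without control replicate 2, or without the filter on low values, SIRT2, MBD2, MBTD1, CNN2 and EGR1 did not pass, with limma adjusted p from 0.091 for CNN2 without the filter to 0.33 for MBD2 without control replicate 2. At an adjusted p under 0.01 these 5 did not pass either, and MBD2 also missed the threshold with no intensity trend (limma adjusted p = 0.086) and with robust eBayes (limma adjusted p = 0.0501). FLNC, which the filter kept through its anti-HOPX arrays, had a limma adjusted p of 0.0090 with all probe sets tested.

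**Figure D5:**
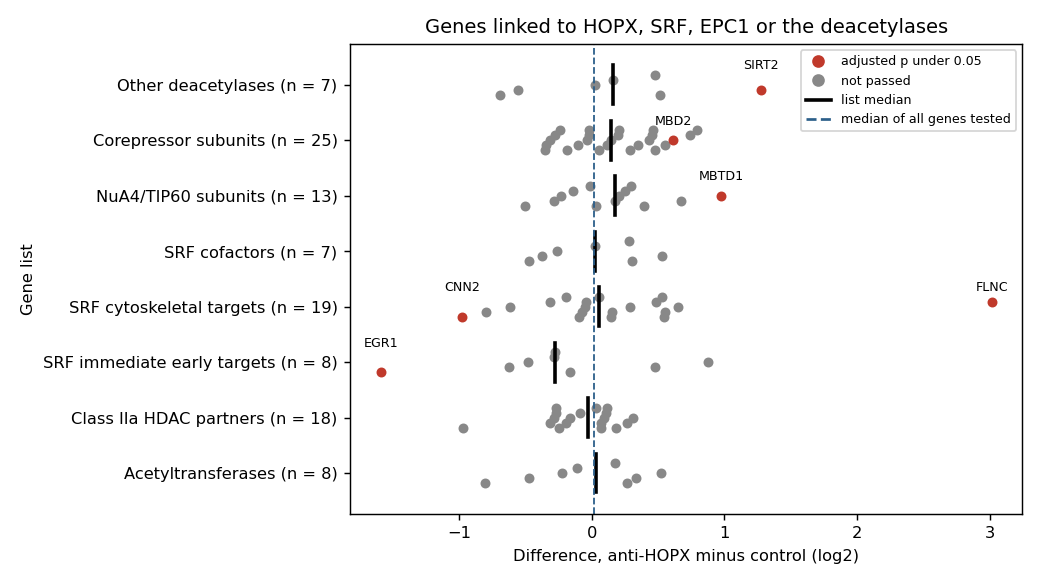
Difference in log2 value, anti-HOPX minus control (x axis), of each measured gene of 8 lists (y axis), 1 probe set a gene. Red points, named, passed an adjusted p of 0.05 by limma; black bars are list medians and the dashed line is the median of all genes tested. Each list holds at most 2 called genes.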

How the data were processed

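From each sample 5 ug of total RNA was made into biotinylated cRNA by the standard Affymetrix procedure, per the labels' protocols. The authors deposited log2 values for each probe set on each array. The submitters' processing notes name GCRMA and Partek 6.4 without their roles; the GCRMA version and any filters are not given in the sources. The scale was read from the values, 0.75 to 15.97. Precision is limited by the number of arrays.

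Genes were named from the platform annotation, updated through gene identifiers of a RefSeq table (assembly GRCg7b), which held 98.8% of them. No sequences were used. The 96 control probe sets were left out. Probe sets with a mean of at least 4, and all member probe sets, entered a limma 3.58.1 fit under R 4.3.3 (lmFit, eBayes with an intensity trend, no replicate block), two-sided, with Benjamini-Hochberg adjustment and a threshold of 0.05. An exact permutation test of 2 arrays against 2 cannot go below p = 0.33, so calls rest on limma's pooled spread (2 residual and 3.51 prior degrees of freedom). For a list gene the probe set of highest mean was used. All member probe sets are named, and from each list up to 6 genes that passed and 2 that did not, by size of difference; other genes named were chosen after their values were seen. Members and lists were chosen with earlier results of these data known. Alternatives were other filters, variance models, normalisations, thresholds, genes in place of probe sets, a replicate block, and each array left out in turn.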

Additional observations from a re-analysis of the deposited data

How the results depend on the processing

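With 2 arrays a form, the number of calls changed when a single array was left out. Such a fit takes its spread from the 2 arrays of the other form alone. The difference of the brighter HDAC3 probe set ran from 0.68 to 0.90 over arrays left out. Why the counts changed was not tested. As reported 14861 probe sets were tested, against 38439 with no filter on low values and fewer with genes in place of probe sets. Counts under these settings are therefore not shares of the same number. Over all probe sets tested 460 were higher and 673 lower. These counts were 80 and 194 with no filter on low values, 76 and 168 at an adjusted p under 0.01, 316 and 452 with genes in place of probe sets, 343 and 536 with no intensity trend, and they ranged from 34 to 711 higher and from 109 to 989 lower when each array was left out (39 and 118 without control replicate 1, 34 and 109 without control replicate 2, 711 and 989 without anti-HOPX replicate 2). The member count of 1 higher became 0 with no filter, with no intensity trend and at an adjusted p under 0.01, and ranged from 0 to 1 over arrays left out. The count of 0 lower by limma stayed 0 in every alternative. The replicate block gave 1142 higher and 1539 lower, with 1 member higher and 0 lower. The block was not used, because the labels do not say that a replicate number is shared between forms. Over the 14851 measured probe sets, the replicate 1 minus replicate 2 gaps of the 2 forms correlated with Pearson's r of 0.25. Whether arrays of the same number share a source of spread was not tested.

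Of 209 recomputed differences of member probe sets, 183 kept their sign and side of the threshold, 5 lost the HDAC3 call and 21 changed sign, 18 of these at probe sets with a mean under 4. Centred on array medians, the signs turned to 0.017 for the dimmer SRF probe set, 0.0015 and 0.023 for HDAC1 probe sets 2 and 4, 0.026 for both HDAC7 probe sets and 0.023 for the dimmest of HDAC9, and quantile normalised again the brighter HDAC7 probe set turned to 0.0099. Over arrays left out, the brighter HOPX probe set ranged from -0.34 to 0.15, the dimmer SRF probe set from -0.025 to 0.0023, HDAC1 probe set 2 from -0.16 to 0.11 and 4 from -0.018 to 0.0064, HDAC7 from -0.52 to 0.51 and from -0.016 to 0.0097, HDAC8 from -0.098 to 0.61, and the dimmer HDAC9 probe sets from -0.0084 to 0.015 and from -0.040 to 0.028. The cause of these turns was not tested.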
